A study of Mus musculus with 12 samples.

Results

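The genes described here code for the cystine and glutathione machinery of the cell, in mouse lung adenocarcinoma cells with a knockout of BACH1, a knockdown of FEM1B, both or neither. They are the cystine/glutamate antiporter system xc- (Slc7a11, Slc3a2), transsulfuration (Cbs, Cth), glutathione synthesis (Gclc, Gclm, Gss), glutathione reduction (Gsr) and glutathione breakdown (Chac1). They were listed by gene symbol, with earlier results of these data known. All 9 were found among the 24421 genes of the count table and among the 13281 that had enough counts to be tested. KP cells are a line of lung adenocarcinoma with the alleles KrasLSL-G12D/+ and Trp53flox/flox, which all groups carry. The groups were sgBACH1 cells (CRISPR/Cas9 knockout of Bach1) with FEM1B siRNA, sgBACH1 cells with control siRNA, sgCTRL cells (control guide) with FEM1B siRNA and sgCTRL cells with control siRNA. The siRNAs acted for 48 hours. Each group had 3 libraries, called biological replicates in the design text. The labels name 1 sgBACH1 and 1 sgCTRL line, so a difference between them is a difference between those lines. The question behind the study was what loss of either protein does to the gene programs of ferroptosis, a form of cell death by lipid peroxidation that needs iron.

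Glutathione is the main small thiol of the cell and the electron donor of GPX4, the enzyme that detoxifies lipid peroxides, and cysteine is usually the scarcest of its building blocks. Cysteine comes from extracellular cystine, carried by SLC7A11 with its heavy chain SLC3A2, or from methionine through transsulfuration by CBS and CTH. Glutamate-cysteine ligase (catalytic subunit GCLC, modifier subunit GCLM) and glutathione synthetase (GSS) then build the tripeptide, GSR recycles its oxidised form, and CHAC1 degrades it. BACH1 is a heme-binding repressor that competes with NRF2 (gene Nfe2l2) at antioxidant response elements, FEM1B is a substrate receptor of a CUL2 ubiquitin ligase, and ATF4 is the factor of the amino acid response that is known to drive Slc7a11 and Chac1.

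Promoter sequences were available for 6 of the 9 genes (RefSeq, GRCm38.p6, 250 bases before to 50 after the start that the RefSeq table uses). They were searched on both strands for TGATGNAA (core of the composite ATF4 and C/EBP element), TGACNNNGC (core of the antioxidant response element) and TGANTCAGC (the NFE2-type form, which overlaps the second pattern at one choice of its free letter). These are shown because they hold a match, which is in capitals: Slc7a11 (chr3:50443564-50443863, minus strand), Chac1 (chr2:119350992-119351291, plus strand) and Gclm (chr3:122245307-122245606, plus strand).
Slc7a11: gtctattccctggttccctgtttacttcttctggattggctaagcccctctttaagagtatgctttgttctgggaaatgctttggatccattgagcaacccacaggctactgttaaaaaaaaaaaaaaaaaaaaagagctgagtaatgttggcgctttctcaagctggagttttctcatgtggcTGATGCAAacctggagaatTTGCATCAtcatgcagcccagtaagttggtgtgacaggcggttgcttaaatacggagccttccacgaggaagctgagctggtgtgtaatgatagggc
Chac1: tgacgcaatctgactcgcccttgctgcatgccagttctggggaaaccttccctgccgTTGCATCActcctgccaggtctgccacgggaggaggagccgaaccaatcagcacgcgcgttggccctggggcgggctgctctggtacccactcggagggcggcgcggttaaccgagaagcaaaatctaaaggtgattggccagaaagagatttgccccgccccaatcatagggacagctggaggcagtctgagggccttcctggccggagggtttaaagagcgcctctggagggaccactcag
Gclm: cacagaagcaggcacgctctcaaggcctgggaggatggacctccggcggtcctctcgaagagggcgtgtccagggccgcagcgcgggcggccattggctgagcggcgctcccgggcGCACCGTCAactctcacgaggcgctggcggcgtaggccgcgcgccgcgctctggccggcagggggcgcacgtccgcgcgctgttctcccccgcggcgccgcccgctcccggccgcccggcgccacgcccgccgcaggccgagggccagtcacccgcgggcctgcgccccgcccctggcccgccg
The Slc7a11 window held the ATF4-type letters TGATGCAA at both -66 to -59 and, on the opposite strand, -47 to -40 from its start. Chac1 held the same letters on the opposite strand, from -193 to -186. Gclm held TGACGGTGC, the antioxidant-type core, on the opposite strand from -134 to -126. No match lay in the windows of Slc3a2, Gss and Cbs. The ATF4-type letters occurred in 3.97% of 32851 promoters of that length, the antioxidant-type core in 12.4% and the NFE2-type letters in 1.19%, and a match is a run of letters, not a measured binding site.

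The libraries held 16539168 to 22196999 counts. Fem1b was at 46.2, 54.4 and 46.4 CPM (counts as parts of their scaled library total) in sgBACH1 cells with FEM1B siRNA and at 140.5, 136 and 141 CPM with control siRNA, against 43.0, 57.9 and 54.2 CPM in sgCTRL cells with FEM1B siRNA and 157, 167 and 164 CPM with control siRNA. Bach1 mRNA averaged 39.9 ± 0.601 CPM in sgBACH1 and 41.3 ± 3.25 CPM in sgCTRL cells under FEM1B siRNA, and 29.5 ± 1.72 CPM in sgBACH1 and 31.4 ± 2.04 CPM in sgCTRL cells under control siRNA (SD, n = 3). Its log2 fold changes of -0.05 and -0.09 between the lines did not pass the test (adjusted p = 0.575 and 0.344). A guide can disrupt a gene without changing its counts, so these levels neither check nor contradict the label. Hmox1, a heme oxygenase gene repressed by BACH1, was higher in sgBACH1 cells by 2.22 ± 0.16 on the log2 scale under control siRNA. Under FEM1B siRNA it was higher by 1.69 ± 0.16. Of the epithelial markers all 6 were kept for the test, with a summed level of 5180 to 5730 CPM over the sgBACH1 libraries and 6250 to 7240 CPM over the sgCTRL libraries. The members of this sum differed in direction. With FEM1B and control siRNA, Cdh1 averaged 615 and 645 CPM in sgBACH1 cells against 400 and 321 CPM in sgCTRL cells. Krt7 averaged 585 and 446 against 1440 and 1730 CPM, and Krt18 2160 and 2230 against 2490 and 2820 CPM. Krt8 was at 2060 to 2160 CPM in all groups. Epcam averaged at most 1.53 CPM and Cldn4 at most 5.12 CPM in any group. Of the 7 alveolar type 2 markers 2 were kept, with a summed level of 126 to 136 CPM over the sgBACH1 libraries and 114 to 128 CPM over the sgCTRL libraries. Abca3 carried nearly all of it (116 to 129 CPM by group), while Nkx2-1 and Sftpc averaged 0 to 0.0162 CPM. The sum over 6 leukocyte markers was 8.57 to 11.1 CPM in sgBACH1 cells with FEM1B siRNA, 5.29 to 6.1 CPM with control siRNA, 21.4 to 30.3 CPM in sgCTRL cells with FEM1B siRNA and 7.5 to 9.7 CPM with control siRNA. Cd68 carried most of it and Ptprc, which defines leukocytes, averaged at most 0.243 CPM. The sum over 6 fibroblast markers was 8.58 to 11.2 CPM in sgBACH1 libraries and 18.3 to 24.8 CPM in sgCTRL libraries, and that over 4 endothelial markers was at most 2.14 CPM. The part of these differences in the results was not tested. In bulk RNA, fewer cells of a type and less RNA per cell cannot be told apart.

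Per unit of exon length the 9 genes covered a wide range. Slc3a2 and Gsr led in every group, at 503 and 304 TPM (counts scaled by merged exon length and then to the library) in sgBACH1 cells with FEM1B siRNA, 599.6 and 328 TPM with control siRNA, 338 and 423 TPM in sgCTRL cells with FEM1B siRNA and 436 and 484 TPM with control siRNA. Chac1 came next in every group, at 130.5 TPM in sgBACH1 cells with FEM1B siRNA, 145 TPM with control siRNA, 138 TPM in sgCTRL cells with FEM1B siRNA and 178 TPM with control siRNA. Cth and then Cbs were lowest in every group. Cth was at 16.2 TPM and Cbs at 4.47 TPM in sgBACH1 cells with FEM1B siRNA, at 24.5 and 2.59 TPM with control siRNA, at 4.13 and 1.75 TPM in sgCTRL cells with FEM1B siRNA and at 8.36 and 1.38 TPM with control siRNA. Gclm, Gclc, Gss and Slc7a11 lay between them, from 13.3 TPM (Slc7a11 in sgCTRL cells with FEM1B siRNA) to 71.4 TPM (Gclm in sgBACH1 cells with FEM1B siRNA). Neighbours in that order overlapped between libraries in 2 cases only, Slc7a11 with Cth in sgBACH1 cells with FEM1B siRNA, and Gss with Cth in sgBACH1 cells with control siRNA. With lengths of the principal transcript alone, Slc3a2 stood above Gsr in all 4 groups and the middle genes changed places, while Chac1, Cth and Cbs kept their ranks.

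**Figure D1:**
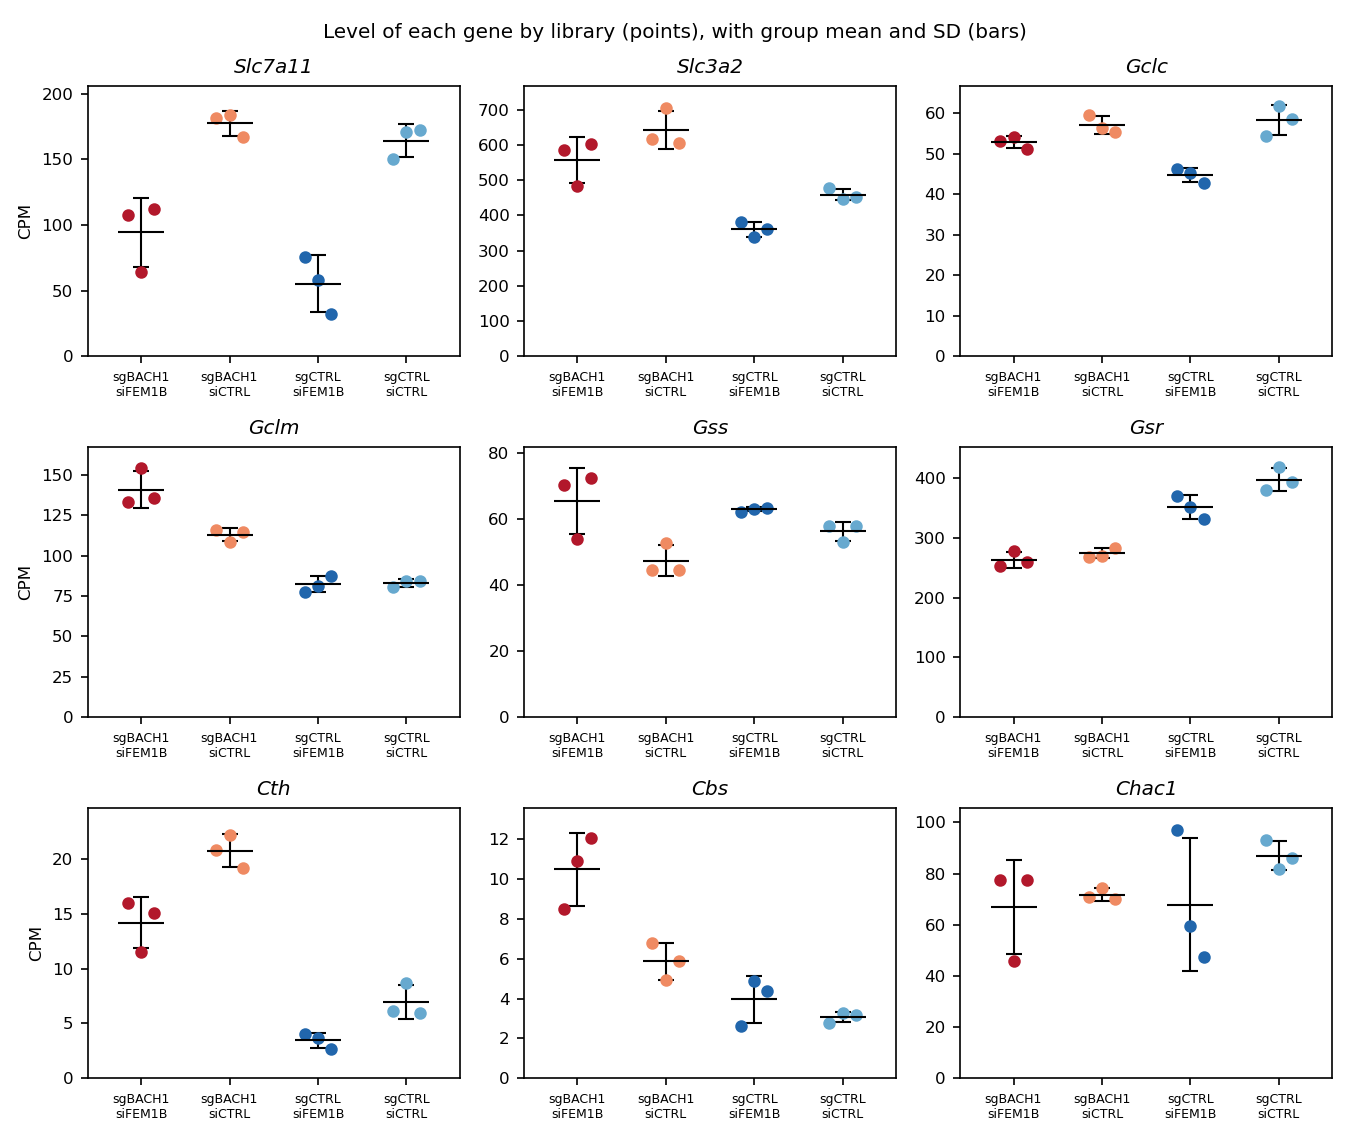
Level of each gene in CPM (vertical axis, from 0) in the 3 libraries of each group (points), with the group mean (horizontal bar) and SD (error bar). Slc7a11 is lowest in both groups with FEM1B siRNA, Cth and Gclm are high in both sgBACH1 groups, Gsr is low in both, and Cbs is highest with both treatments.

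The BACH1 guide and FEM1B siRNA differed in which of these genes were called. In sgBACH1 cells the transsulfuration genes, Slc3a2 and Gclm were higher than in sgCTRL cells and Gsr lower, under either siRNA. With FEM1B siRNA Slc7a11, Slc3a2 and Cth fell in both lines, and Gclm, Gss and Cbs rose in sgBACH1 cells. A gene was called at an adjusted p under 0.05 in edgeR's quasi-likelihood test over all tested genes, and n is 3 libraries per group. Under FEM1B siRNA, sgBACH1 against sgCTRL cells had 7 of the 9 genes called, 6 higher and 1 lower, where 54.6% of all tested genes were called (28.2% higher and 26.4% lower). Under control siRNA 6 were called, 4 higher and 2 lower, against 50.5% of all (24.2% higher and 26.3% lower). FEM1B siRNA against control siRNA had 6 called in sgBACH1 cells, 3 higher and 3 lower, where 41.7% of all genes were called (21.9% higher and 19.8% lower). In sgCTRL cells 5 were called, all lower, against 45% of all (22.1% higher and 22.9% lower). These shares are high for all genes, and the counts alone do not set the 9 apart. The libraries of the groups compared did not overlap for 6 of the 9 under FEM1B siRNA and 7 under control siRNA in the comparisons of the lines (57% and 60.3% of all tested genes). For the siRNA they did not overlap for 7 in sgBACH1 cells and 6 in sgCTRL cells (51.5% and 52.1% of all). The median log2 fold changes of the 9 were 0.63 under FEM1B siRNA and 0.11 under control siRNA for the guide, and -0.10 in sgBACH1 cells and -0.35 in sgCTRL cells for the siRNA, with all-gene medians between -0.02 and 0.02.

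**Figure D2:**
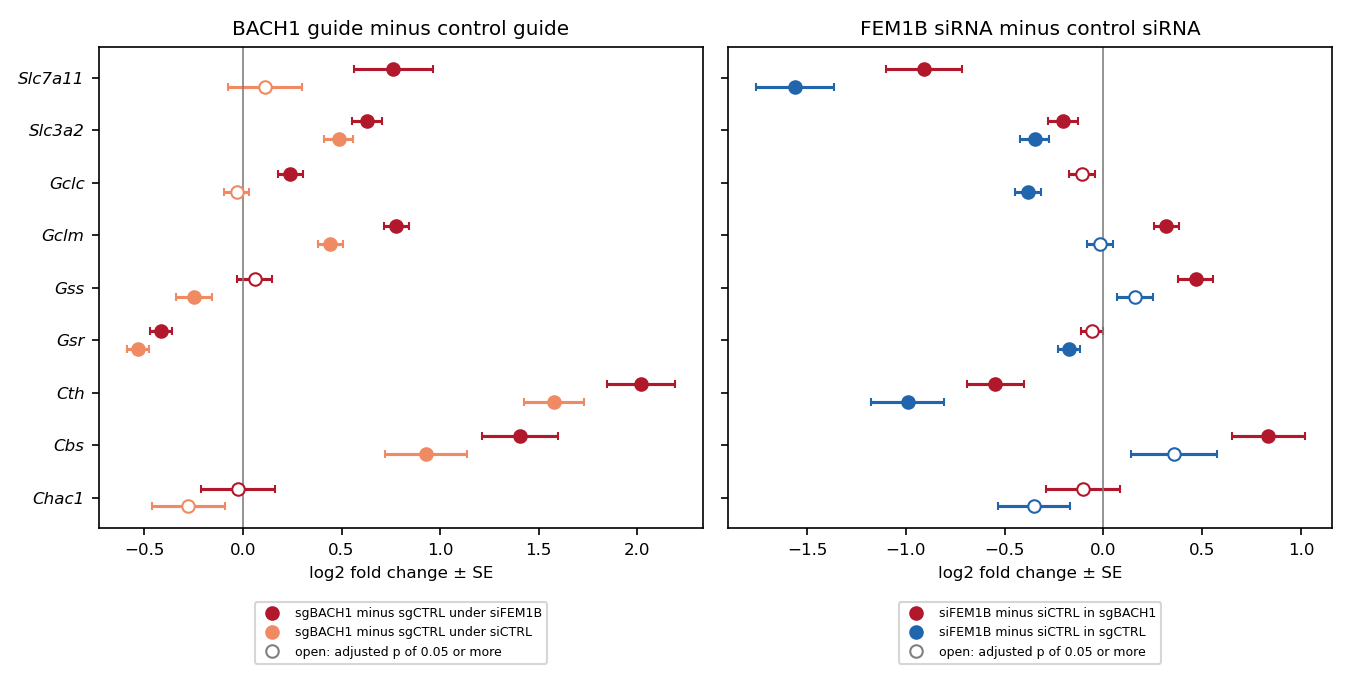
Log2 fold change with its SE (horizontal axis) of each gene for the BACH1 guide (left) and for FEM1B siRNA (right), in each case in the 2 settings named in the legend. Filled points passed the test. Cth lies farthest to the right for the guide, at 2.02 and 1.58, and Slc7a11 farthest to the left for the siRNA, at -0.91 and -1.56 with all libraries.

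Slc7a11, the transporter subunit that imports cystine, fell with FEM1B siRNA in both lines. It was at 107, 63.8 and 112 CPM in sgBACH1 cells with FEM1B siRNA and at 182, 183 and 167 CPM with control siRNA. In sgCTRL cells it was at 75.3, 58.1 and 32.3 CPM with FEM1B siRNA and at 150.1, 171 and 172 CPM with control siRNA. Every library with FEM1B siRNA was below every library with control siRNA, and the libraries within each FEM1B siRNA group were spread widely. In sgBACH1 cells the log2 fold change was -0.91 ± 0.19 (SE, adjusted p = 0.000762), and in sgCTRL cells -1.56 ± 0.20, about 0.338 of the control level (adjusted p = 2.94e-06). Under FEM1B siRNA Slc7a11 was higher in sgBACH1 than in sgCTRL cells by 0.76 ± 0.20 (adjusted p = 0.00303), although the lowest sgBACH1 library lay below the highest sgCTRL library. Under control siRNA the difference was 0.11 ± 0.19, with an approximate 95% interval from -0.32 to 0.54 (adjusted p = 0.649), and a fit to those 6 libraries alone called it (0.13, adjusted p = 0.0447). With both treatments it was at 0.574 of the level with neither (log2 fold change -0.80 ± 0.19, adjusted p = 0.00114).

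Slc3a2, the heavy chain that carries SLC7A11 and other amino acid carriers to the membrane, differed mainly by line. It was at 585, 482 and 602 CPM in sgBACH1 cells with FEM1B siRNA and at 615, 705 and 605 CPM with control siRNA, against 382, 338 and 359.9 CPM in sgCTRL cells with FEM1B siRNA and 476, 446 and 453 CPM with control siRNA. Every sgBACH1 library was above every sgCTRL library. It rose in sgBACH1 cells by 0.63 ± 0.07 under FEM1B siRNA and by 0.49 ± 0.07 under control siRNA (adjusted p = 6.79e-07 and 1.79e-05). With FEM1B siRNA it fell by less, with log2 fold changes of -0.21 ± 0.07 in sgBACH1 cells and -0.35 ± 0.07 in sgCTRL cells (adjusted p = 0.0317 and 0.000764). The call in sgBACH1 cells was lost without their control siRNA replicate 2 (-0.13) or their FEM1B siRNA replicate 2 (-0.11). Slc3a2 lies on chromosome 19, where the median gene was higher in sgBACH1 cells by 0.442 under FEM1B siRNA and 0.443 under control siRNA. With chromosome medians removed, its differences between the lines were 0.19 under FEM1B siRNA, still called, and 0.052 under control siRNA, no longer called. With both treatments against neither it was 0.28 ± 0.07 (adjusted p = 0.00262). Relative to its chromosome it was then at -0.18 and called lower (adjusted p = 0.0315).

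Cth, whose enzyme releases cysteine from cystathionine, had the largest difference between the lines of the 9 genes. It was at 15.9, 11.5 and 15 CPM in sgBACH1 cells with FEM1B siRNA and 20.8, 22.2 and 19.2 CPM with control siRNA, against 4.01, 3.71 and 2.66 CPM in sgCTRL cells with FEM1B siRNA and 6.14, 8.71 and 5.97 CPM with control siRNA. The groups did not overlap in any comparison, and the lowest count behind these values was 49. The sgBACH1 level was 4.06 times the sgCTRL level under FEM1B siRNA (log2 fold change 2.02 ± 0.17, adjusted p = 7.11e-09) and 2.98 times under control siRNA (1.58 ± 0.15, adjusted p = 4.03e-08). With FEM1B siRNA Cth fell by 0.55 ± 0.14 in sgBACH1 cells (adjusted p = 0.00425) and fell by 0.99 ± 0.18 in sgCTRL cells (adjusted p = 0.000194). With both treatments Cth stayed above the level with neither, by 1.03 ± 0.16 (adjusted p = 9.55e-06).

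Cbs, whose enzyme condenses homocysteine with serine in the step before CTH, was also higher in sgBACH1 cells but moved the other way with the siRNA. It was at 8.48, 10.9 and 12.1 CPM in sgBACH1 cells with FEM1B siRNA and 6.79, 4.94 and 5.87 CPM with control siRNA, against 2.63, 4.88 and 4.39 CPM in sgCTRL cells with FEM1B siRNA and 2.77, 3.30 and 3.16 CPM with control siRNA. Every sgBACH1 library was above every sgCTRL library, and in sgCTRL cells the siRNA groups overlapped. The log2 fold change of sgBACH1 over sgCTRL cells was 1.41 ± 0.19 under FEM1B siRNA and 0.93 ± 0.21 under control siRNA (adjusted p = 4.57e-06 and 0.000947). Cbs rose with FEM1B siRNA in sgBACH1 cells by 0.83 ± 0.18 (adjusted p = 0.00116). In sgCTRL cells its log2 fold change was 0.36 ± 0.22, with an interval from -0.15 to 0.86 (adjusted p = 0.196), and 0.59 without replicate 1 of the FEM1B siRNA group, then called. With both treatments Cbs was at 3.39 times the level with neither (1.76 ± 0.20, adjusted p = 2.1e-07). Per exon length, the ratio of Cth to Cbs was 3.74 ± 1.15 (SD) in sgBACH1 cells with FEM1B siRNA and 9.68 ± 2.07 with control siRNA, and 2.58 ± 1.32 in sgCTRL cells with FEM1B siRNA and 6.03 ± 1.01 with control siRNA.

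Gclm, the modifier subunit that raises the efficiency of glutamate-cysteine ligase, was higher in sgBACH1 cells. It was at 133, 154 and 136 CPM in sgBACH1 cells with FEM1B siRNA and 116, 108 and 115 CPM with control siRNA, against 77.7, 81.2 and 87.6 CPM in sgCTRL cells with FEM1B siRNA and 80.4, 84.6 and 84.4 CPM with control siRNA. The 3 levels of sgBACH1 cells with FEM1B siRNA lay above all others, those of sgBACH1 cells with control siRNA came next, and the sgCTRL groups overlapped. The log2 fold change of sgBACH1 over sgCTRL cells was 0.78 ± 0.06 under FEM1B siRNA and 0.44 ± 0.06 under control siRNA (adjusted p = 3.8e-09 and 8.15e-06), although the median gene of its chromosome, 3, was at -0.128 and -0.141. It rose with FEM1B siRNA in sgBACH1 cells by 0.32 ± 0.06 (adjusted p = 0.000408). In sgCTRL cells the log2 fold change was -0.02 ± 0.06, with an interval from -0.16 to 0.13 (adjusted p = 0.856). Exons of Gclm overlap those of Gm17494 on the opposite strand over 296 bases and of the pseudogene Gm6061 on the same strand over 244 bases, so part of its count is uncertain.

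Gclc, the catalytic subunit that joins glutamate and cysteine, fell with FEM1B siRNA in sgCTRL cells. It was at 53.1, 54.2 and 51.2 CPM in sgBACH1 cells with FEM1B siRNA and 59.5, 56.3 and 55.3 CPM with control siRNA, against 46.1, 45.4 and 42.7 CPM in sgCTRL cells with FEM1B siRNA and 54.4, 61.8 and 58.6 CPM with control siRNA. The sgCTRL libraries with FEM1B siRNA were the lowest. The log2 fold change with FEM1B siRNA was -0.11 ± 0.06 in sgBACH1 cells, with an interval from -0.26 to 0.04 (adjusted p = 0.186), and in sgCTRL cells Gclc fell by 0.38 ± 0.06 (adjusted p = 8.02e-05). Under FEM1B siRNA it was higher in sgBACH1 cells by 0.24 ± 0.07 (adjusted p = 0.00404), and under control siRNA the difference was -0.03 ± 0.06 (adjusted p = 0.712). The median gene of its chromosome, 9, was higher in sgBACH1 cells by 0.292 and 0.274 in these comparisons. Relative to the chromosome, Gclc stood at -0.049, no longer called, under FEM1B siRNA and at -0.30, then called (adjusted p = 0.000637), under control siRNA. The ratio of Gclc to Gclm per exon length was 0.629 ± 0.039 (SD) in sgBACH1 cells with FEM1B siRNA and 0.844 ± 0.034 with control siRNA, against 0.913 ± 0.090 in sgCTRL cells with FEM1B siRNA and 1.17 ± 0.046 with control siRNA. No library with both treatments had a ratio as high as any library with neither.

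Gss, which adds glycine in the last step of synthesis, rose with FEM1B siRNA in sgBACH1 cells. It was at 70.3, 54.1 and 72.4 CPM in sgBACH1 cells with FEM1B siRNA and 44.8, 52.9 and 44.7 CPM with control siRNA, against 62.3, 63.1 and 63.5 CPM in sgCTRL cells with FEM1B siRNA and 58.0, 53.1 and 58.0 CPM with control siRNA. The siRNA groups did not overlap in either line, although replicate 2 of the sgBACH1 cells nearly closed the gap. The log2 fold change was 0.47 ± 0.09 in sgBACH1 cells (adjusted p = 0.000351) and 0.16 ± 0.09 in sgCTRL cells (interval from -0.05 to 0.37, adjusted p = 0.155), where a fit to those 6 libraries alone called it (0.17, adjusted p = 0.0482). Under control siRNA Gss was lower in sgBACH1 cells (log2 fold change -0.25 ± 0.09, adjusted p = 0.0277), a call that ended without replicate 1 or 3 of either group, with adjusted p of 0.0794 to 0.115, at an average log2 CPM of at least 3 (adjusted p = 0.0582) and with chromosome medians removed (-0.12). Under FEM1B siRNA the difference was 0.06 ± 0.09 (adjusted p = 0.599), and 0.18, then called, without replicate 2 of the sgBACH1 cells. Exons of Gss overlap 395 bases of Acss2, which had 319 to 516 counts per library, and the transcripts Gssos1 and Gssos2, all on the opposite strand. Without the strand setting of the counting, its values are uncertain to that extent.

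Gsr, which regenerates reduced glutathione with NADPH, was lower in sgBACH1 cells. It was at 252, 278 and 259 CPM in sgBACH1 cells with FEM1B siRNA and 268, 270.4 and 284 CPM with control siRNA, against 370.4, 352 and 331 CPM in sgCTRL cells with FEM1B siRNA and 380.3, 418 and 393 CPM with control siRNA. All 6 sgBACH1 libraries were below all 6 sgCTRL libraries. The log2 fold change of sgBACH1 over sgCTRL cells was -0.42 ± 0.06 under FEM1B siRNA and -0.53 ± 0.06 under control siRNA (adjusted p = 3.12e-06 and 1.2e-07), while the median gene of its chromosome, 8, was at -0.0648 and -0.117. In sgBACH1 cells the log2 fold change with FEM1B siRNA was -0.06 ± 0.06 (adjusted p = 0.419). In sgCTRL cells Gsr fell by 0.18 ± 0.06 (adjusted p = 0.0135), a call that ended without the sgCTRL control siRNA replicate 2 (adjusted p = 0.0808) or FEM1B siRNA replicate 3 (adjusted p = 0.0926).

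Chac1, which cleaves glutathione in the cytosol, passed the test in no comparison. It was at 77.4, 45.8 and 77.5 CPM in sgBACH1 cells with FEM1B siRNA and 71.0, 74.5 and 69.9 CPM with control siRNA, against 96.9, 59.4 and 47.2 CPM in sgCTRL cells with FEM1B siRNA and 93.1, 82.0 and 85.9 CPM with control siRNA. The groups with FEM1B siRNA spanned a wider range than either control siRNA group. The log2 fold change of FEM1B siRNA was -0.10 ± 0.19 in sgBACH1 cells and -0.35 ± 0.18 in sgCTRL cells (adjusted p = 0.692 and 0.126), with intervals from -0.53 to 0.33 and from -0.78 to 0.07. Without replicate 1 of the sgCTRL cells with FEM1B siRNA the change in sgCTRL cells was -0.70 and was called (adjusted p = 0.000584), as it was without a filter on low counts (-0.36, adjusted p = 2.46e-06). The unfiltered change was close in size to the main one, so its smaller p reflects a smaller error estimate. Under control siRNA the sgBACH1 libraries lay below the sgCTRL libraries, with a log2 fold change of -0.28 ± 0.18 (adjusted p = 0.219). It was called without a filter on low counts (-0.28, adjusted p = 0.000229) and in a fit to those 6 libraries (-0.25, adjusted p = 0.00078). Over all alternatives it lay from -0.32 to -0.15, and the median gene of its chromosome, 2, was at -0.136.

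The comparison of both treatments with neither uses the same libraries as those above. In it 7 of the 9 genes were called, 5 higher and 2 lower, where 64.8% of all tested genes were called (32.5% higher and 32.3% lower), and the libraries did not overlap for 8 of the 9, against 68.3% of all. Cbs, Cth, Gclm, Slc3a2 and Gss were higher, and Slc7a11 and Gsr were lower. With chromosome medians removed, Slc3a2 was at -0.18 and called lower (adjusted p = 0.0315). Gclm was higher by 0.76 ± 0.06 (adjusted p = 2.85e-09) and Gsr lower (log2 fold change -0.59 ± 0.06, adjusted p = 1.6e-08). Gss was at 0.22 ± 0.09 (adjusted p = 0.0383), with overlapping libraries, and its call ended without any 1 of the libraries with neither treatment or without replicate 1 or 3 of those with both (adjusted p of 0.0524 to 0.204). Gclc and Chac1 were at -0.14 ± 0.06 and -0.38 ± 0.18 (adjusted p = 0.063 and 0.0785). Gclc was called with chromosome medians removed (-0.41, adjusted p = 1.34e-05) and without replicate 1 of the libraries with neither treatment (-0.19, adjusted p = 0.023). Chac1 was called in 7 of the alternative fits, at -0.37 to -0.50 with adjusted p from 1.36e-07 (no filter on low counts) to 0.0479. Its unfiltered value was -0.39, close to the -0.38 of the main fit.

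Whether the response to FEM1B siRNA differed between the lines was tested as the difference of the siRNA effects (sgBACH1 minus sgCTRL). For all 9 genes this difference was above 0, under each alternative that was run as well, with a median of 0.31 against 0.02 over all tested genes. The 9 values share the same 12 libraries, so they are not 9 separate results. Of the lists described below, the median was 0.27 for the methionine cycle, 0.24 for glutamate and glycine supply and 0.18 for glutathione transport. It was 0.07 for amino acid carriers, 0.02 for the gamma-glutamyl cycle and -0.08 for regulators. Of the 9 genes 1 was called, where 6.08% of all genes were called (3.48% higher and 2.6% lower). That gene was Gclm, at 0.33 ± 0.09 (adjusted p = 0.0318). Its call was not stable, since it ended in 8 of the 12 fits that each left out 1 library, with adjusted p from 0.0188 to 0.0782. The difference was 0.65 ± 0.27 for Slc7a11, with an interval from 0.02 to 1.28 that is not adjusted for the number of genes (adjusted p = 0.155). It was called without replicate 1 of the sgCTRL cells with FEM1B siRNA (0.94), without replicate 2 of the sgBACH1 cells with FEM1B siRNA (0.87) or without a filter on low counts (0.65, adjusted p = 2.71e-10). The unfiltered fit gave the same size of difference with a smaller error estimate. Cbs, Cth, Gss, Gclc, Chac1, Slc3a2 and Gsr had differences of 0.48 ± 0.29, 0.45 ± 0.23, 0.31 ± 0.13, 0.27 ± 0.09, 0.25 ± 0.26, 0.14 ± 0.11 and 0.12 ± 0.08, with adjusted p from 0.078 for Gclc to 0.607 for Chac1. Gss was called without replicate 2 of the sgBACH1 cells with FEM1B siRNA (0.43, adjusted p = 0.00755) or without a filter (0.31, adjusted p = 0.0449).

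Libraries within the FEM1B siRNA groups were spread in the same order for several of these genes. In sgBACH1 cells, replicate 2 was the lowest for Slc7a11, Slc3a2, Gss, Cth and Chac1, and the highest for Gclc, Gclm and Gsr. In sgCTRL cells, replicate 1 was the highest for Slc7a11, Slc3a2, Cth, Chac1, Gclc and Gsr, and the lowest for Gclm, Gss and Cbs. Replicate 3 was there the lowest for Slc7a11, Cth, Chac1, Gclc and Gsr. The highest library over the lowest was 1.75 for Slc7a11 and 1.69 for Chac1 in sgBACH1 cells with FEM1B siRNA, and 2.33 and 2.05 in sgCTRL cells with FEM1B siRNA, against 1.07 to 1.15 in the groups with control siRNA. Gclc, Gclm and Gsr had no such spread, with ratios of 1.05 to 1.16 in all groups. Atf4 was also lowest in replicate 2 of the sgBACH1 cells with FEM1B siRNA (450.0 CPM against 574 and 567) and highest in replicate 1 of the sgCTRL cells with FEM1B siRNA (543 CPM against 435 and 437). Trib3, a target of ATF4, was at 141, 89.6 and 143 CPM in sgBACH1 cells with FEM1B siRNA and 179, 121 and 116 CPM in sgCTRL cells with FEM1B siRNA. Ddit3, a factor of the stress response, went the other way in the same libraries. It was at 51.0, 59.8 and 46.8 CPM in sgBACH1 cells and 63.7, 69.3 and 99.0 CPM in sgCTRL cells. Fem1b itself was highest in that sgBACH1 replicate 2, at 54.4 CPM, and lowest in that sgCTRL replicate 1, at 43.0 CPM. The part of these differences in the spread was not tested.

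**Figure D3:**
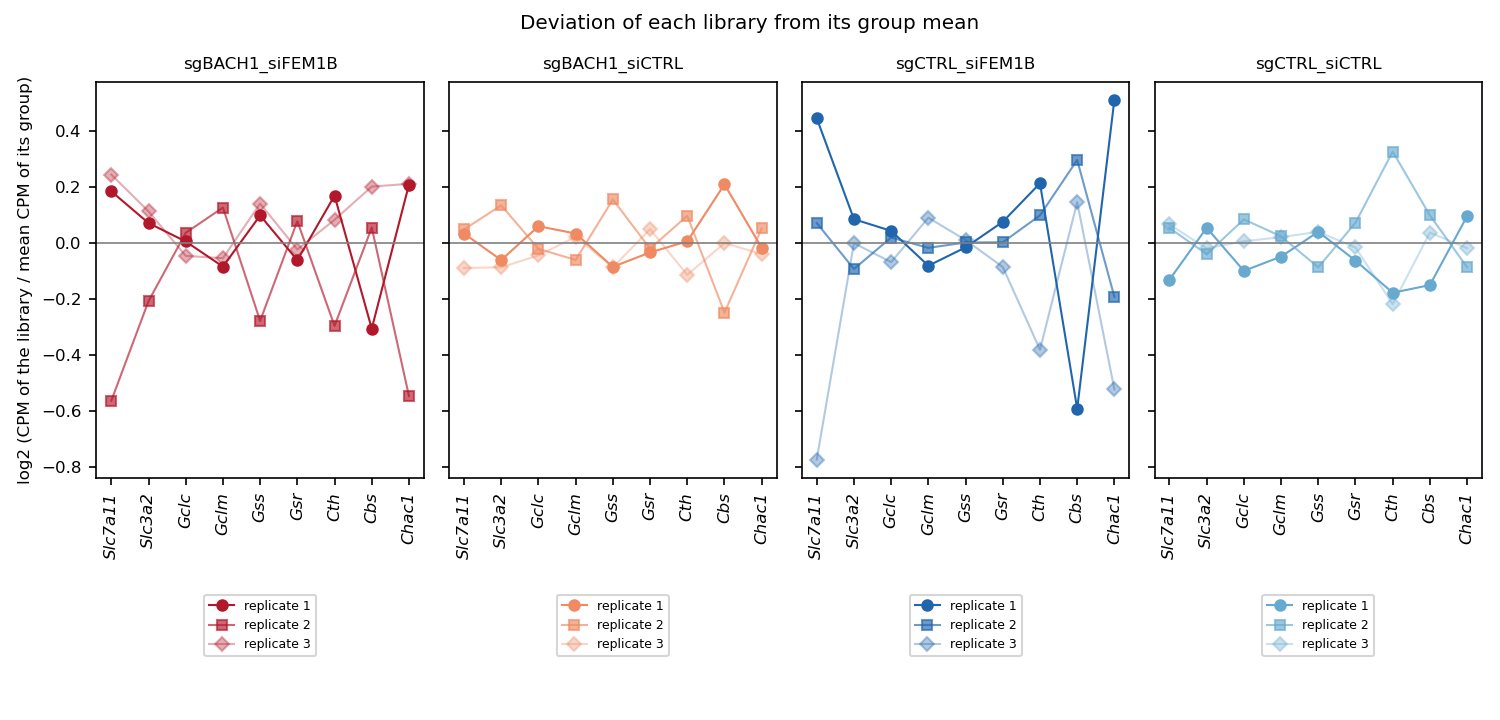
Deviation of each library from the mean of its group, as log2 of its CPM over that mean (vertical axis), for the 9 genes in the 4 groups. In the groups with FEM1B siRNA the libraries part at Slc7a11 and Chac1, with highest over lowest of 1.69 to 2.33, and in those with control siRNA they stay together at 1.07 to 1.15.

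Among the regulators, Nfe2l2 was at 59.7, 54.8 and 60.5 CPM in sgBACH1 cells with FEM1B siRNA and 105, 114 and 113 CPM with control siRNA, against 58.2, 55.6 and 51.9 CPM in sgCTRL cells with FEM1B siRNA and 116, 116 and 115 CPM with control siRNA. It fell with FEM1B siRNA in both lines, with log2 fold changes of -0.93 ± 0.06 in sgBACH1 cells and -1.07 ± 0.06 in sgCTRL cells (adjusted p = 9.72e-10 and 1.07e-10). Between the lines it differed by 0.08 ± 0.06 under FEM1B siRNA and -0.06 ± 0.06 under control siRNA (adjusted p = 0.312 and 0.377). Atf4 had log2 fold changes with FEM1B siRNA of -0.17 ± 0.09 in sgBACH1 cells (adjusted p = 0.132) and -0.32 ± 0.09 in sgCTRL cells (adjusted p = 0.00562). Those of Trib3 were -0.35 ± 0.16 in sgBACH1 cells and -0.61 ± 0.15 in sgCTRL cells (adjusted p = 0.0775 and 0.00298). Those of Ddit3, another factor of the stress response, were -0.17 ± 0.13 in sgBACH1 cells and 0.32 ± 0.12 in sgCTRL cells (adjusted p = 0.301 and 0.0457). Keap1, which targets NRF2 for degradation, was at 0.02 ± 0.07 in sgBACH1 cells and -0.08 ± 0.07 in sgCTRL cells (adjusted p = 0.821 and 0.343). Bach1 mRNA rose with FEM1B siRNA, by 0.44 ± 0.08 in sgBACH1 cells and 0.40 ± 0.08 in sgCTRL cells. Of the 16 regulators, 2 were called higher and 9 lower in sgBACH1 cells under FEM1B siRNA, and 1 higher and 8 lower under control siRNA. Bach2 was called higher under both (1.15 ± 0.35 under FEM1B siRNA and 1.92 ± 0.31 under control siRNA). Its level was low, at most 2.47 CPM on average in any group. Keap1 was called higher under FEM1B siRNA (0.19 ± 0.07, adjusted p = 0.0225) and not under control siRNA (0.09 ± 0.07, adjusted p = 0.303). Among the lower were the stress factor Atf3 (-0.77 ± 0.09 under FEM1B siRNA and -0.33 ± 0.09 under control siRNA) and the kinase Eif2ak4, a sensor of amino acid shortage (-0.35 ± 0.06 under FEM1B siRNA and -0.30 ± 0.06 under control siRNA). With FEM1B siRNA, 2 were higher and 3 lower in sgBACH1 cells, and 5 higher and 3 lower in sgCTRL cells. Between the lines, 68.8% of the regulators were called under FEM1B siRNA and 56.2% under control siRNA, against 54.6% and 50.5% of all tested genes. For the siRNA, 31.2% were called in sgBACH1 cells and 50% in sgCTRL cells, against 41.7% and 45% of all.

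Most genes of a list around glutamate and glycine supply were lower with FEM1B siRNA in sgCTRL cells. The list also holds enzymes that use glutamate, so its counts do not describe supply alone. Of 14 genes of glutamate and glycine supply, 1 was higher and 5 lower in sgBACH1 cells, and 2 were higher and 10 lower in sgCTRL cells, where the list's median was -0.39. The genes called were 42.9% of the list in sgBACH1 cells and 85.7% in sgCTRL cells, against 41.7% and 45% of all tested genes. The serine and glycine genes Shmt1, Phgdh and Shmt2 were at -0.98 ± 0.11, -0.29 ± 0.08 and -0.35 ± 0.10 in sgBACH1 cells and at -1.35 ± 0.11, -0.83 ± 0.08 and -0.76 ± 0.10 in sgCTRL cells. For Phgdh, which starts serine synthesis, the difference of these effects was called (0.53 ± 0.11, adjusted p = 0.00915). Between the lines, 8 of the 14 were higher and 1 lower in sgBACH1 cells under FEM1B siRNA, and 6 higher and 4 lower under control siRNA. These were 64.3% and 71.4% of the list, against 54.6% and 50.5% of all tested genes. Glud1 was at 0.39 ± 0.05 under FEM1B siRNA and 0.23 ± 0.05 under control siRNA. In the same order Psat1 was at 0.48 ± 0.10 and 0.42 ± 0.10, and Got2 at -0.12 ± 0.05 and -0.33 ± 0.05.

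Of 16 genes of the methionine cycle and sulfur metabolism, FEM1B siRNA had 5 higher and 5 lower in sgBACH1 cells, and none higher and 9 lower in sgCTRL cells. These were 62.5% and 56.2% of the list, against 41.7% and 45% of all tested genes. Mat2a, which makes S-adenosylmethionine, averaged 176 ± 47.2 CPM (SD) in sgBACH1 cells with FEM1B siRNA and 233 ± 10.0 CPM with control siRNA, against 119 ± 15.3 CPM in sgCTRL cells with FEM1B siRNA and 273 ± 19 CPM with control siRNA. Ahcy, which forms homocysteine, the substrate of CBS, averaged 154 ± 0.85 CPM in sgBACH1 cells with FEM1B siRNA and 131 ± 3.49 CPM with control siRNA, against 133 ± 8.62 CPM in sgCTRL cells with FEM1B siRNA and 156 ± 1.28 CPM with control siRNA. The difference of the siRNA effects was called for 5 of these 16 genes (31.2%, against 6.08% of all tested genes), all above 0. Among them were Ahcy (0.46 ± 0.07, adjusted p = 0.00137), Mat2a (0.79 ± 0.18, adjusted p = 0.0161) and the sulfide oxidase Sqor, listed under its older symbol Sqrdl (0.36 ± 0.08, adjusted p = 0.0165). Between the lines, 8 were higher and 3 lower in sgBACH1 cells under FEM1B siRNA, and 2 higher and 5 lower under control siRNA. These were 68.8% and 43.8% of the list, against 54.6% and 50.5% of all tested genes. Mat2b was at 0.38 ± 0.06 under FEM1B siRNA and 0.20 ± 0.06 under control siRNA. In the same order Ahcyl1 was at -0.47 ± 0.07 and -0.23 ± 0.06, Sqrdl at -0.18 ± 0.06 and -0.54 ± 0.06, and Ethe1 at -0.28 ± 0.08 and -0.52 ± 0.08.

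Of 13 other amino acid carriers, none was called higher and 5 lower with FEM1B siRNA in sgBACH1 cells, and 1 higher and 7 lower in sgCTRL cells. These were 38.5% and 61.5% of the list, against 41.7% and 45% of all tested genes. The mitochondrial glutamate carrier Slc25a22 was at -0.59 ± 0.09 in sgBACH1 cells and -0.91 ± 0.09 in sgCTRL cells. The 1 carrier called higher in sgCTRL cells was Slc25a12, at 0.50 ± 0.08 (adjusted p = 4.07e-05). In sgBACH1 cells Slc25a12 was at 0.13 ± 0.08 (adjusted p = 0.215). Slc1a4, a carrier of neutral amino acids, was at -0.47 ± 0.14 in sgBACH1 cells and -0.88 ± 0.14 in sgCTRL cells (adjusted p = 0.0106 and 4.68e-05). Between the lines, 6 were higher and 3 lower in sgBACH1 cells under FEM1B siRNA, and 3 higher and 4 lower under control siRNA. These were 69.2% and 53.8% of the list, against 54.6% and 50.5% of all tested genes. The aspartate/glutamate carrier Slc25a13 was at -0.90 ± 0.07 under FEM1B siRNA and -0.70 ± 0.07 under control siRNA.

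Of 9 genes of the gamma-glutamyl cycle and glutathione breakdown, 3 were higher and 2 lower with FEM1B siRNA in sgBACH1 cells, and 3 higher and 1 lower in sgCTRL cells. These were 55.6% and 44.4% of the list, against 41.7% and 45% of all tested genes. Chac2, the more slowly acting relative of Chac1, averaged 24.2 ± 1.22 CPM (SD) in sgBACH1 cells with FEM1B siRNA and 15.2 ± 0.556 CPM with control siRNA, against 14.4 ± 0.85 CPM in sgCTRL cells with FEM1B siRNA and 11.6 ± 1.19 CPM with control siRNA. It rose with the siRNA by 0.67 ± 0.09 in sgBACH1 cells and 0.31 ± 0.10 in sgCTRL cells (adjusted p = 1.13e-05 and 0.015), and was higher in sgBACH1 cells by 0.75 ± 0.09 under FEM1B siRNA and 0.39 ± 0.10 under control siRNA (adjusted p = 1.55e-06 and 0.00289). Between the lines, 4 of the 9 were higher and 2 lower under either siRNA. These were 66.7% of the list, against 54.6% of all tested genes under FEM1B siRNA and 50.5% under control siRNA. The dipeptidase Dpep2 was at 1.36 ± 0.13 under FEM1B siRNA and 0.95 ± 0.15 under control siRNA, and the cytosolic peptidase Cndp2 at -0.80 ± 0.07 under FEM1B siRNA and -0.58 ± 0.07 under control siRNA. Chac1 was not called in these comparisons, and the difference between the genes was not tested.

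Of 15 genes of glutathione transport, glutaredoxins and the glyoxalase system, 5 were higher and 4 lower with FEM1B siRNA in sgBACH1 cells, and 3 higher and 8 lower in sgCTRL cells. These were 60% and 73.3% of the list, against 41.7% and 45% of all tested genes. The exporter Abcc1, which carries glutathione and its conjugates, was at -0.59 ± 0.06 in sgBACH1 cells and -0.43 ± 0.06 in sgCTRL cells (adjusted p = 3.53e-07 and 1.09e-05). Hagh, which releases glutathione in the glyoxalase pathway, rose by 0.73 ± 0.06 in sgBACH1 cells and 0.58 ± 0.06 in sgCTRL cells. Between the lines, 5 were higher and 2 lower in sgBACH1 cells under FEM1B siRNA, and 1 higher and 6 lower under control siRNA, among them the exporter family member Abcc5 (-0.44 ± 0.08 under FEM1B siRNA and -0.62 ± 0.08 under control siRNA). The genes called were 46.7% of the list under either siRNA, against 54.6% of all under FEM1B siRNA and 50.5% under control siRNA.

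**Figure D4:**
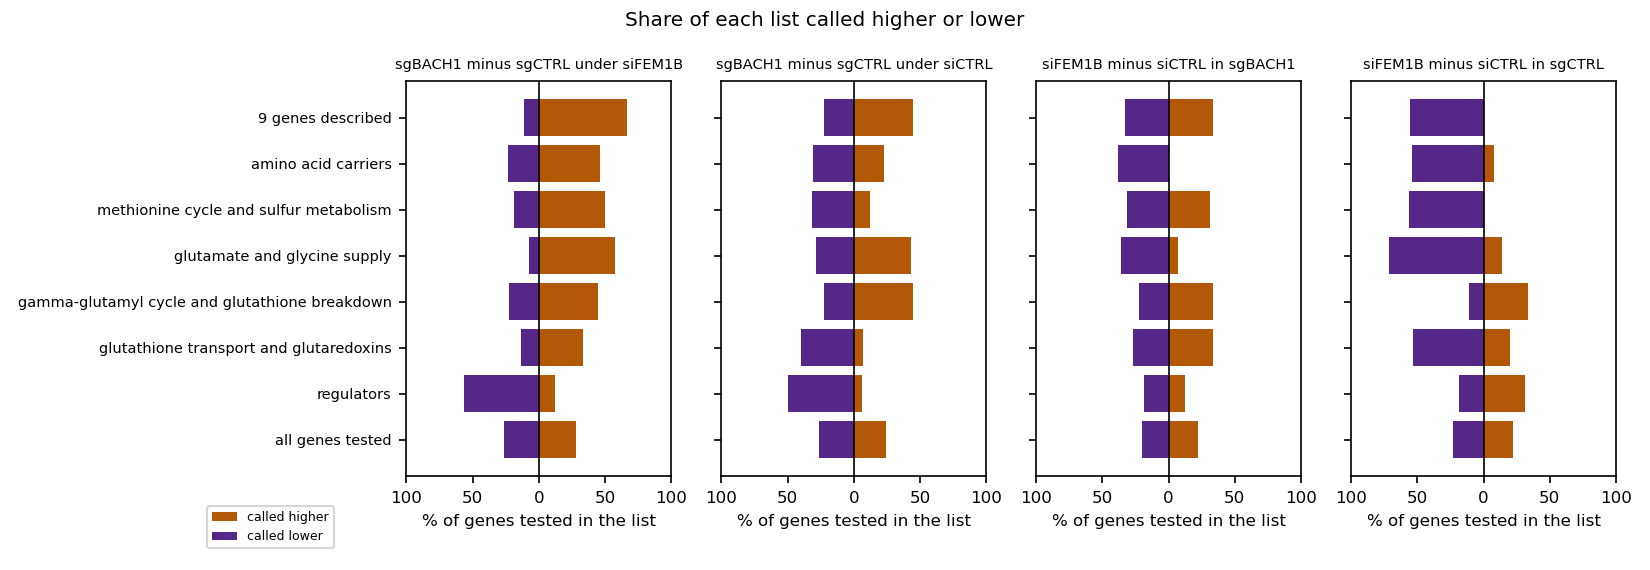
Percentage of the tested genes of each list that were called higher (right of 0) or lower (left of 0) in the comparisons of sgBACH1 with sgCTRL cells (left pair) and of FEM1B siRNA with control siRNA (right pair), beside all 13281 tested genes. With FEM1B siRNA in sgCTRL cells, 10 of 14 genes of glutamate and glycine supply were lower, and the 9 genes described had 5 lower and none higher. Of all tested genes 22.9% were lower there.

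Over the 12 libraries, the genes whose log2 CPM followed Slc7a11 most closely, among 9616 genes compared, were Slc1a4 (Pearson r = 0.986), Cul7 (0.984) and Slc39a14 (0.982), and 173 genes had an r over 0.9. Those closest to Cth were Sema3c (0.993), Tmtc4 (0.988) and Farp1 (0.985), and those closest to Gclm were Ube2b (0.982), Nfia (0.978) and Yipf2 (0.975), with 325 and 357 genes over 0.9. For Chac1 the closest were Gpt2 (0.915), Slc7a1 (0.9) and Aco1 (0.897), and 1 gene was over 0.9. These values describe libraries that share the same 4 groups and are given without a test.

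The genes lie at these places in GRCm38.p6, the assembly of the build mm10 used for the counts, each span covering exons and introns together. Slc7a11 is at chr3:50364936-50499087, Gclm at chr3:122245487-122267215 and Cth at chr3:157894248-157925081. Gss is at chr2:155563181-155592810 and Chac1 at chr2:119351242-119354326. Slc3a2 is at chr19:8706882-8723369, Gclc at chr9:77754535-77794489, Gsr at chr8:33653238-33698162 and Cbs at chr17:31612623-31637233. Gclm, Gclc, Gsr and Chac1 are on the plus strand and the others on the minus strand.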

How the data were processed

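Whole-number counts per gene symbol were deposited by the authors, without normalization. The build was mm10 and the tools named are SAMtools 1.9, featureCounts 1.6.4, DESeq2 1.26.0 and Subread, per the submitters' processing notes. Which annotation was counted, and with which strand setting, is not given in the sources used here. This affects genes with overlapping exons. The libraries were stranded poly(A) libraries, per the labels' protocols. All 12 count columns were used. Group and replicate came from the sample titles.

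Low counts were filtered by filterByExpr (minimum count 10), and libraries scaled with TMM factors of 0.989 to 1.01. The main test was the two-sided quasi-likelihood test of edgeR 4.0.16 (R 4.3.3), in 1 model with a mean for each of 4 groups (8 residual degrees of freedom) and Benjamini-Hochberg adjustment over 13281 genes. The SE is the absolute log2 fold change over the square root of F, and intervals are approximate 95% intervals from it. The intervals use the 8 residual degrees of freedom, fewer than the test itself uses, so they are wider than its p-values imply. CPM uses the library total times its TMM factor, so that 1 count was worth 0.0446 to 0.0603 CPM. TPM used merged GENCODE M21 exons. No replicate pair held identical values, and counts within pairs differed by more than sampling noise (chi-square per degree of freedom 2.54 to 14.1), so each library counted as 1 sample.

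Alternatives were DESeq2 1.42.0 and its size factors, library totals, limma-voom (limma 3.58.1), other filters, fits to the compared libraries, a replicate block, removal of chromosome medians and leaving out each library. Levels by principal transcript length were added after the data had been seen. The 9 genes and the pathway and marker lists were chosen with earlier results of these data known. All 9 are named; from each list up to 3 called genes per comparison with the smallest p may be named, with a few preset regulators, and for 4 of the 9 the 3 genes of most similar pattern. A gene so named is given in the matching comparison of the other line or siRNA too. 14 listed genes had too few counts to be tested.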

Additional observations from a re-analysis of the deposited data

Results flagged for a closer look

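With the filter on low counts and all 12 libraries, Gclm was the single gene of the 9 for which a test of the difference between the lines in the response to FEM1B siRNA passed. The siRNA effect in sgBACH1 cells minus that in sgCTRL cells was 0.33 on the log2 scale (adjusted p = 0.0318, edgeR quasi-likelihood test). The effects themselves were 0.32 ± 0.06 in sgBACH1 cells and -0.02 ± 0.06 in sgCTRL cells. The call ended in 8 of the 12 fits that left out 1 library, with adjusted p up to 0.0782. Without a filter on low counts the same difference was also called for Slc7a11 (0.65, adjusted p = 2.71e-10) and Gss (0.31, adjusted p = 0.0449). With the filter these differences were the same size, 0.65 and 0.31 (adjusted p = 0.155 and 0.151). The lower p without the filter thus reflects a smaller error estimate and not a larger difference. For Gclm, all 3 sgBACH1 libraries with FEM1B siRNA were above all 3 with control siRNA.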

How the results depend on the processing

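The number of the 9 genes called stayed within 1.5 times the reported count in every comparison except the difference of siRNA effects, where 3 of the 9 genes were called without a filter on low counts and 0 to 3 when 1 library was left out. Over all genes that comparison had 807 calls, 1393 without a filter, and 297 to 1859 when 1 library was left out, the highest without replicate 2 of the sgBACH1 cells with FEM1B siRNA. Of its calls 57.2% were higher, against 45.6% with DESeq2 size factors, 44.2% in DESeq2, 39.4% at an average log2 CPM of at least 3, 47.2% with chromosome medians removed and 41.9% without replicate 3 of the sgCTRL cells with FEM1B siRNA. The cause was not tested.

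Signs turned where a value was near 0 or shared the shift of its chromosome. Between the lines under control siRNA, Gclc lay from -0.079 to 0.014 when 1 library was left out (highest without sgCTRL replicate 2). Under FEM1B siRNA, with chromosome medians removed, Gclc was at -0.049 and Chac1 at 0.085. There Chac1 lay from -0.24 to 0.32 when 1 library was left out, above 0 without sgCTRL replicate 1 (0.32) or sgBACH1 replicate 2 (0.18), and Gss from -0.016 (without sgBACH1 replicate 3) to 0.18. With FEM1B siRNA in sgCTRL cells, Gclm was at 0.0019 with DESeq2 size factors, 0.00099 in DESeq2 and 0.012 at an average log2 CPM of at least 3, and from -0.049 to 0.022 when 1 library was left out (highest without FEM1B siRNA replicate 1). In sgBACH1 cells Chac1 lay from -0.22 to 0.11 (highest without FEM1B siRNA replicate 2). For both treatments against neither, Slc3a2 was at -0.18 with chromosome medians removed, and was then called lower (adjusted p = 0.0315).

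Replicate numbers did not pair the libraries: 5 of 18 correlations between libraries with the same number were over 0.1, and 0 of 12 libraries matched its own number best. The replicate block gave 603 calls in the difference of siRNA effects and changed 2 calls among the 9 genes, both for both treatments against neither, where Gss (0.22) was no longer called and Chac1 (-0.40) was. Cbs was below the average log2 CPM of 3, so that filter gave no value for it. Depth limits Cth and Cbs most, which had the fewest counts.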
